A study of Mus musculus with 28 samples.

Results

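Genes whose products build or guard the contractile filaments of striated muscle were followed through the differentiation of C2C12 cells, an immortalised myoblast line from mouse skeletal muscle. They are Klhl40, Klhl41, Klhl31, Lmod2, Lmod3, Unc45b, Smyd1 and Xirp1, chosen by symbol as 8 of the 49089 genes in the count table. Each symbol matched 1 row, and all 8 were among the 15303 genes with enough counts to be tested.

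Sarcomeres are built from actin thin filaments and myosin thick filaments, and both need helpers. Kelch-like (KLHL) proteins of muscle bind and stabilise thin filament components or serve as adaptors of the cullin 3 ubiquitin ligase, and leiomodins start and lengthen actin filaments at their pointed ends. Unc45b folds the myosin head together with Hsp90, and Smyd1, a SET domain lysine methyltransferase, works beside it on myosin in zebrafish. Xirp1 (Xin) binds and steadies actin filaments at muscle attachment sites.

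The groups were wild-type cells in growth medium with 20% fetal bovine serum (GM) and cells moved near confluence to differentiation medium with 3% horse serum (DM) for 12, 24, 48, 60 or 96 h. RNA-seq covered 3 libraries in each of the 6 groups. ATAC-seq, which marks open chromatin, covered 2 libraries at 60 h and 2 in GM, and Hi-C, which maps chromosome contacts, covered 3 and 3. All data come from this 1 line. The labels call the replicates biological without saying that they were grown apart, so the p-values speak only to variation among these libraries, which may be technical.

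RNA libraries held 24.2 to 36.4 M counts. The 4 skeletal myoblast markers exceeded 1 CPM (counts relative to library size, with the fit's scaling between libraries) in every library, as did 1 of 5 cardiac markers up to 48 h and 2 of 5 at 60 and 96 h. The 5 cardiac markers summed to 16.0 to 18.6 CPM at 96 h, against 12.8 to 14.8 CPM in GM, with Nppa and Tbx5 at 0 in all 6 groups. Summed smooth muscle markers reached 1475 to 1553 CPM at 60 h, against 519 to 530 CPM in GM, and the part of either list in the results was not tested. Libraries of a group differed in their counts over genes by a chi-square of 5.06 to 53.2 per degree of freedom, most between replicates 1 and 3 at 12 h, and no member call at 12 h depended on either of these. Replicate 3 at 24 h differed from the other 24 h libraries by 12.0 and 19.8, with Polr2a, the large subunit of RNA polymerase II, 1.73 higher on the log2 scale. Among the 8 genes that gap was 0.58 for Xirp1 and lay between -0.13 and 0.07 for the other 7. In bulk RNA, a larger share of cells with a transcript and more transcript per cell cannot be told apart.

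The promoters below show where the chromatin data bear on these genes. Unc45b had a called peak of open chromatin over its start at 60 h and none in GM, Lmod2 had a peak there that was far narrower in GM, and Klhl41 had the only MEF2 motif found in the 6 promoters available. The runs are the 250 bases before the annotated start, from RefSeq on GRCm38.p6, 5′ to 3′. Capitals mark E-boxes (CANNTG, a general form that includes the sites of MyoD and myogenin but is wider than them) and the MEF2 motif.
Unc45b: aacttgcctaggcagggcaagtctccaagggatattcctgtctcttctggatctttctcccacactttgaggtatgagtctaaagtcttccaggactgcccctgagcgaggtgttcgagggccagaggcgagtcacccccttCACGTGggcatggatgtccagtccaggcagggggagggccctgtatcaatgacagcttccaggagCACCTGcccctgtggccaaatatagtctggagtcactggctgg
Lmod2: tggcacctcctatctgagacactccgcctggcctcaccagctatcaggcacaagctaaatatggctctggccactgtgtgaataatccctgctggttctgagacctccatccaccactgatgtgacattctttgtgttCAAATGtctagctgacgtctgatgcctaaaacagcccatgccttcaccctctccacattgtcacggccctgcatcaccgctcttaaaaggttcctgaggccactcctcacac
Klhl41: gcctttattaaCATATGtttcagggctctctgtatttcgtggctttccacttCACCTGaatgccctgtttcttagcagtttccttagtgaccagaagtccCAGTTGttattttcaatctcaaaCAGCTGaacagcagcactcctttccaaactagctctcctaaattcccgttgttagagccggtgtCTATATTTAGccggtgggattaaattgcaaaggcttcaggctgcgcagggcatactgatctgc
Unc45b lies on the plus strand at chr11:82911003-82911252, Lmod2 on the plus strand at chr6:24597521-24597770 and Klhl41 on the plus strand at chr2:69669870-69670119. Klhl41 held 4 E-boxes, including CAGCTG from -127 to -122 and CACCTG from -198 to -193, and a MEF2 motif from -63 to -54, counted from the base before the start as -1. Unc45b held CACCTG from -43 to -38 and another E-box from -108 to -103, and Lmod2 held a single E-box from -112 to -107.

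E-boxes were found in 4 of the 6 promoters, those of Klhl40, Klhl41, Lmod2 and Unc45b, and in 56.5% of the 9662 promoters of tested protein-coding genes. The search read both strands and kept overlapping matches. CAGCTG, present in Klhl40 and Klhl41, occurred in 11.9% of promoters, and CACCTG, present in Klhl41 and Unc45b, in 14.5%. The MEF2 motif of Klhl41 occurred in 1.70%. Neither the CArG box, bound by serum response factor and found in 1.19% of promoters, nor the MCAT motif CATTCC, found in 10.4%, matched in any of the 6. A match describes letters in this window and is not a measured binding site.

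All 8 genes were higher at every time in DM than in GM, and by 96 h the log2 fold change ran from 4.16 for Xirp1 to 8.10 for Unc45b. Changes were called with edgeR's quasi-likelihood test on all 18 libraries at an adjusted p under 0.05, with p adjusted over all tested genes. All 8 were called higher at 12 h, when 17.8% of all tested genes were, and at 24 h, when 30.2% were. They were again called at 48 h (32.5% of tested genes called higher), 60 h (33.1%) and 96 h (34.8%). The median log2 fold change of the 8 was 1.25, 2.82, 4.45, 5.06 and 6.31 at the 5 times, beside medians over all tested genes of at most 0.01.

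For each of the 8 genes, every library at each DM time lay above every GM library, a separation that 22.9% of tested genes showed at 12 h, 32.2% at 24 h, 34.9% at 48 h, 35.5% at 60 h and 36.1% at 96 h. A test for any difference from GM called all 8, as it did 86.0% of tested genes. Of the 8, 7 were also called higher at each of the 5 successive steps from GM to 96 h, a pattern that 0.569% of tested genes met. The exception was Xirp1, which was not called between 12 and 24 h.

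**Figure D1:**
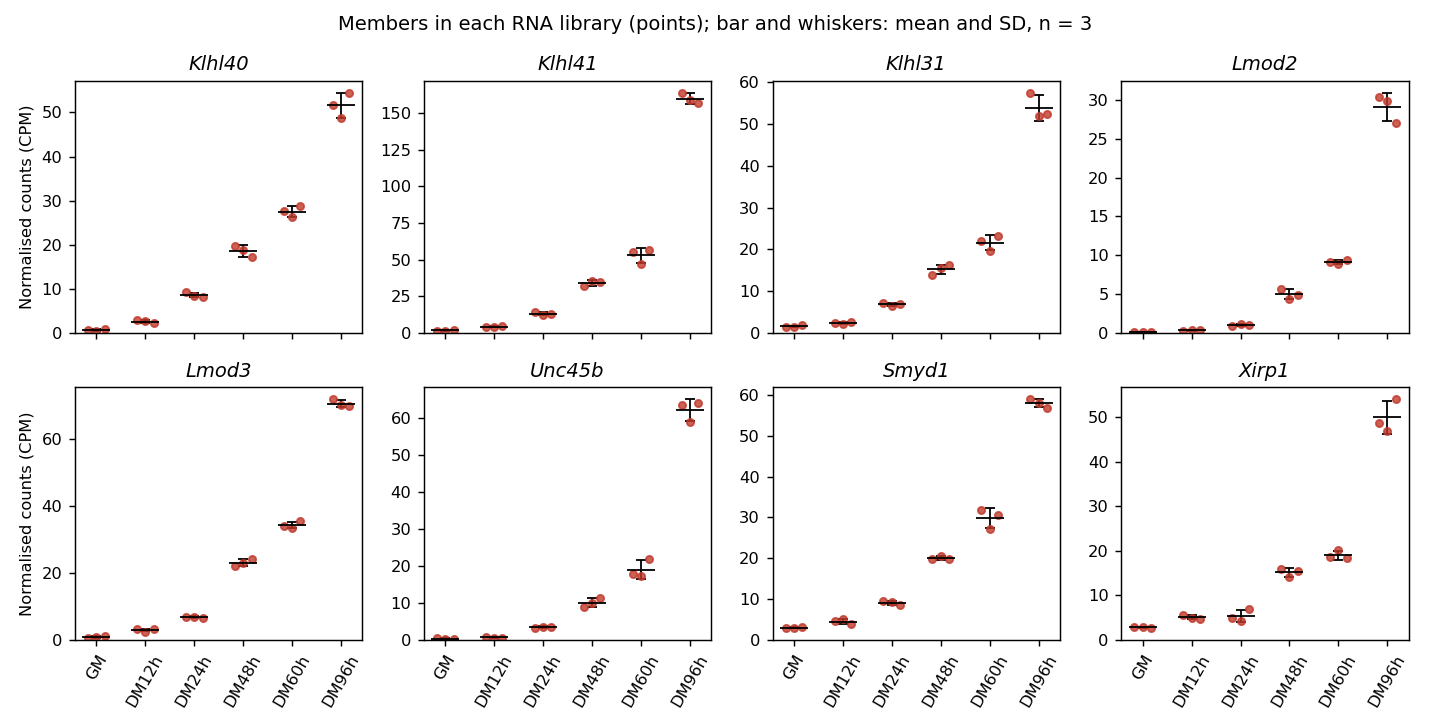
Normalised counts (CPM, linear axis starting at 0, a scale of its own in each panel) of the 8 genes in the 18 RNA libraries, ordered by time. Points are libraries, and bars with whiskers are the mean and SD of 3. Every gene is lowest in GM and highest at 96 h, where Klhl41 averages 160 CPM, and Xirp1 alone has overlapping libraries at 12 and 24 h.

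Among the KLHL genes, Klhl40 had the largest early rise. Klhl40, which stabilises nebulin and leiomodin 3 and whose loss causes nemaline myopathy, had 0.630, 0.458 and 0.897 CPM in GM, then 2.91, 2.67 and 2.24 CPM at 12 h and 9.21, 8.44 and 8.22 CPM at 24 h. The 48 h libraries had 19.7, 18.9 and 17.2 CPM, the 60 h libraries 27.6, 26.4 and 28.7 CPM and the 96 h libraries 51.6, 48.8 and 54.4 CPM. No group overlapped the next. Its 12 h change of 1.98 ± 0.18 (log2 ± SE, adjusted p = 3.52e-08) was the largest fitted of the 8 and ranked 65 among all tested genes. The steps that followed were 1.72 ± 0.11, 1.11 ± 0.09, 0.56 ± 0.08 and 0.90 ± 0.07, so its largest fitted step was the earliest. Given these SEs, its 12 h change cannot be told apart in size from its next step or from the 12 h change of Lmod3 (1.70 ± 0.16). By 60 h Klhl40 stood at 53.4% of its 96 h mean.

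Klhl41, a related kelch protein that also stabilises nebulin, had its 2 largest steps between 12 and 24 h and between 60 and 96 h. It had 1.59, 1.68 and 2.36 CPM in GM, 4.26, 4.06 and 4.81 CPM at 12 h and 14.5, 12.6 and 12.8 CPM at 24 h. The 48 h libraries had 32.1, 35.6 and 34.8 CPM, the 60 h libraries 55.5, 47.3 and 56.6 CPM and the 96 h libraries 164, 159 and 157 CPM. Groups did not overlap. The change at 96 h against GM was 6.41 ± 0.10 (adjusted p = 3.40e-22). Between 60 and 96 h alone it gained 1.59 ± 0.07, and its 60 h level was 33.2% of its 96 h mean.

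Klhl31, a kelch protein whose loss gives a myopathy in mice, had the smallest fitted 12 h change of the 8, not told apart from that of Smyd1 (0.63 ± 0.11). It averaged 1.61 ± 0.18 CPM in GM, 2.42 ± 0.31 at 12 h, 6.88 ± 0.37 at 24 h, 15.2 ± 1.2 at 48 h, 21.6 ± 1.8 at 60 h and 53.9 ± 3.1 CPM at 96 h (SD, n = 3 each). At 12 h its libraries held 2.16 to 2.76 CPM, against 1.50 to 1.83 CPM in GM, so the groups were close but apart. The 12 h change was 0.58 ± 0.14 (adjusted p = 0.00294). It grew to 5.06 ± 0.10 at 96 h (adjusted p = 1.15e-20).

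Both leiomodins had their largest fitted step between 24 and 48 h, an interval longer than the 12 h of each earlier step. Lmod3, the leiomodin tied to nemaline myopathy and a client of Klhl40, had 0.556, 0.886 and 1.13 CPM in GM, 3.05, 2.35 and 3.09 CPM at 12 h and 6.81, 6.80 and 6.40 CPM at 24 h. The 48 h libraries had 21.9, 22.9 and 24.0 CPM, the 60 h libraries 34.0, 33.4 and 35.3 CPM and the 96 h libraries 71.7, 69.9 and 69.7 CPM. The libraries of each time were tightly grouped and apart from their neighbours. Its change was 1.70 ± 0.16 at 12 h (adjusted p = 5.62e-08) and 6.34 ± 0.11 at 96 h (adjusted p = 9.53e-22), and its step between 24 and 48 h was 1.78 ± 0.08. Given these SEs, the Lmod3 step between 24 and 48 h cannot be told apart in size from its change at 12 h.

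Lmod2, the leiomodin best known from heart muscle, was close to undetected at the outset. Its GM libraries held 4, 3 and 6 counts (0.148, 0.0917 and 0.199 CPM), and its 12 h libraries 10, 15 and 14 counts (0.282, 0.401 and 0.383 CPM). At 24 h it had 0.901, 1.22 and 0.990 CPM, and the 48 h libraries had 5.72, 4.40 and 4.87 CPM. The 60 h libraries had 9.18, 8.86 and 9.40 CPM and the 96 h libraries 30.3, 29.9 and 27.1 CPM. Groups did not overlap. The 12 h change of 1.27 ± 0.36 (adjusted p = 0.0113) rests on these few counts, and without GM replicate 2 it was 1.03 with an adjusted p of 0.0842. From 24 to 48 h Lmod2 gained 2.26 ± 0.14 (adjusted p = 6.51e-11), the largest step of the 8 genes in that interval, and at 96 h it stood 7.61 ± 0.17 above GM (adjusted p = 4.97e-20).

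Unc45b, the myosin chaperone, showed the largest rise over the whole course. Its GM libraries held 8, 5 and 7 counts (0.297, 0.153 and 0.233 CPM), and its 12 h libraries 0.790, 0.534 and 0.437 CPM. At 24 h it had 3.10, 3.51 and 3.47 CPM, and the 48 h libraries had 8.77, 9.88 and 11.3 CPM. The 60 h libraries had 17.7, 17.1 and 21.8 CPM and the 96 h libraries 63.6, 58.9 and 64.2 CPM. All groups were separate from their neighbours in time. The 24 h step of 2.52 ± 0.20 (adjusted p = 4.93e-10) ranked 52 among tested genes, and the 60 h change against GM, 6.38 ± 0.19, ranked 22. By 96 h the change was 8.10 ± 0.17 (adjusted p = 2.27e-20). As with Lmod2, the size of the fold depends on a GM level of a few counts per library.

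Smyd1, the methyltransferase that partners with myosin chaperoning, had 78, 89 and 90 counts in the GM libraries and rose at every step. It averaged 2.87 ± 0.14 CPM in GM, 4.42 ± 0.56 at 12 h, 9.03 ± 0.51 at 24 h, 20.0 ± 0.5 at 48 h, 29.8 ± 2.4 at 60 h and 58.0 ± 1.0 CPM at 96 h (SD, n = 3 each). Libraries at 12 h held 3.85 to 4.97 CPM, against 2.72 to 2.99 CPM in GM. The changes at 12 and 96 h were 0.63 ± 0.11 (adjusted p = 8.74e-05) and 4.34 ± 0.08 (adjusted p = 5.98e-21). Its 5 steps lay between 0.57 and 1.15.

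Xirp1 rose by 12 h, was not called between 12 and 24 h, and rose again. It had 2.74, 2.903 and 2.69 CPM in GM and 5.53, 4.78 and 4.70 CPM at 12 h, then 4.94, 4.08 and 6.77 CPM at 24 h. The 48 h libraries had 15.9, 14.0 and 15.5 CPM, the 60 h libraries 18.5, 20.1 and 18.3 CPM and the 96 h libraries 48.8, 46.9 and 54.1 CPM. The 24 h libraries spanned those at 12 h, while all other neighbouring groups were separate. It rose at 12 h by 0.84 ± 0.15 (adjusted p = 1.28e-04). The difference between 24 and 12 h was 0.06 ± 0.13 (95% interval -0.22 to 0.35, adjusted p = 0.706), and without replicate 3 at 24 h it was -0.17 (adjusted p = 0.246). Xirp1 then gained 1.53 ± 0.12 between 24 and 48 h (adjusted p = 1.82e-09) and ended 4.16 ± 0.12 above GM (adjusted p = 6.55e-18).

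Each step can also be read across the group, bearing in mind that the intervals lasted 12, 12, 24, 12 and 36 h. Between 12 and 24 h, 7 of the 8 were called higher, as were 27.8% of tested genes, and the same 7 had no overlapping libraries, against 29.5%. Between 24 and 48 h all 8 were called (17.5% of tested genes), with steps of 1.11 to 2.26. Over all genes, 54.3% of the calls in that interval were higher, and 40.1% with total counts. Between 60 and 96 h all 8 were called (22.6%), with steps of 0.90 for Klhl40 to 1.72 for Unc45b. All 8 were separate in both intervals, against 24.4% and 26.3% of tested genes.

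The step from 48 to 60 h, 0.32 to 0.93, was the smallest for 7 of the 8 genes, Xirp1 having its smallest from 12 to 24 h, and all 8 were called beside 15.8% of tested genes, with all 8 separate beside 26.6%. Here the balance of calls over all genes depended on scaling: 58.3% of called genes were higher under the scaling used, 45.4% with upper-quartile scaling and 24.3% with total counts. Xirp1, at 0.32 ± 0.10 (adjusted p = 0.0249), lost its call under 11 of 26 alternatives, with adjusted p reaching 0.157 without replicate 2 at 48 h and 0.144 with total counts. The other 7 kept their calls in that step under all 26.

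**Figure D2:**
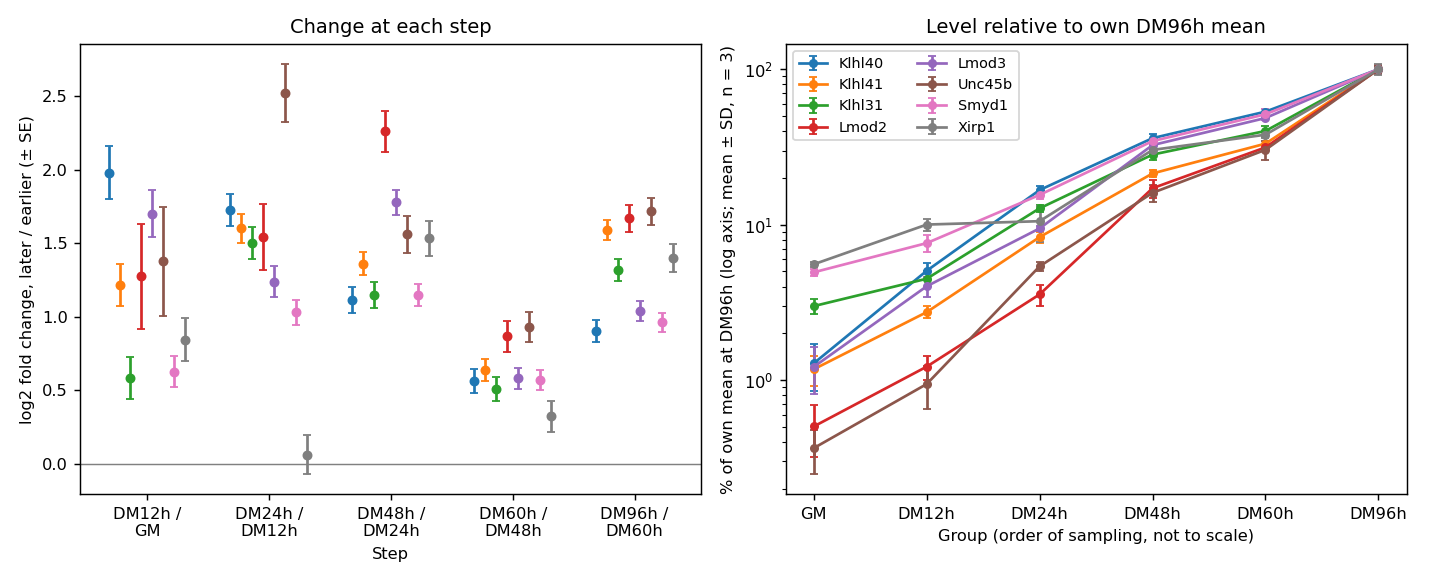
Left, log2 fold change of each gene at each successive step (later over earlier, points with SE from the fit); right, mean level as a percentage of the gene's own 96 h mean (log axis, SD of 3 libraries), in order of sampling. Klhl40 has the largest first step (1.98), Unc45b the largest 24 h step (2.52) and Lmod2 the largest 48 h step (2.26), and at 60 h the genes sit between 30.3% and 53.4% of their 96 h means.

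At 60 h, the time that also has chromatin data, the genes were at 30.3% to 53.4% of their 96 h means. Unc45b stood at 30.3%, Lmod2 at 31.4%, Klhl41 at 33.2% and Xirp1 at 37.9% of their 96 h means. Klhl31 stood at 40.1%, Lmod3 at 48.6%, Smyd1 at 51.4% and Klhl40 at 53.4%. The SD of these shares was at most 4.17 percentage points, and neighbours in this order lay within that of each other except Klhl41 and Xirp1, and Klhl31 and Lmod3. Across the 6 group means the 28 pairs of genes correlated at r = 0.929 (Klhl40 with Xirp1) to 0.999 (Lmod2 with Smyd1) on the log2 scale, a description over 6 points in which all share the same libraries.

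Among 9372 other genes with a log2 CPM averaging 3 or more over the libraries, the profiles closest to each gene over the 6 group means were listed by Pearson's r. For Lmod2 they were Chpt1, Acta1 and Myl1 (r from 0.9996 to 0.9998), the last 2 encoding skeletal actin and a myosin light chain. For Smyd1 they were Mybph, Myl1 and Casq2 (r from 0.9991 to 0.9995). The 5 closest to the mean profile of the group were Ppp6c, Rdh5, Fxr1, Hfe2 and Mybph, in falling order of r from 0.9999 to 0.9983. The closest to Unc45b were Fzd1, Rnf166 and Rdh5, to Klhl41 Pttg1ip, Ppp6c and Rdh5, and to Klhl40 Stk17b, Ggps1 and Cd81 (r of at least 0.9977). Those closest to Lmod3 were Wdr47, Hes6 and Stk17b, to Klhl31 Rnf166, Tmco3 and Maged1, and to Xirp1 Ntn4, Tapt1 and Opa1 (r of at least 0.9956). Likeness over 6 points says nothing of shared function.

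The muscle members of these families were set against their relatives within each library, as log2 ratios of CPM + 0.1. Levels of different genes are not comparable without transcript lengths, so only shifts of a ratio between groups are read. The 15 DM libraries were compared with the 3 GM libraries by a two-sided exact permutation test, in which the smallest possible p was 0.00123 over 816 splits, and p was adjusted over the 6 ratios. These DM libraries came from 5 times at which ratios differed, so they are not replicates of a single condition. Each DM mean pools the times, and the test treats the libraries of all times as interchangeable. The 8 members had already been called higher at every time, so the p of a ratio is not evidence apart from those calls. The ratio of Unc45b to its ubiquitous relative Unc45a was -2.07 on average in DM and -6.89 in GM, a shift of 4.82 (exact p = 0.00245, adjusted 0.00490), higher in 15 of 15 DM libraries than in any GM library. Group means were -6.89 ± 0.35 in GM, -5.70 ± 0.36 at 12 h, -3.35 ± 0.09 at 24 h, -1.71 ± 0.23 at 48 h, -0.79 ± 0.18 at 60 h and 1.21 ± 0.12 at 96 h (SD, n = 3 each). Unc45a itself fell by 0.23 ± 0.06 at 60 h against GM (adjusted p = 0.00153), with 33.0, 31.7 and 32.8 CPM at 60 h against 39.7, 39.7 and 35.2 CPM in GM.

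Smyd1 gained on Smyd2, a widely expressed methyltransferase of the same family, by 3.19 (exact p = 0.00245, adjusted 0.00490), with -1.18 in DM and -4.37 in GM. Smyd2 fell by 0.64 ± 0.06 at 60 h. Lmod3 gained on Tmod3, a tropomodulin that caps pointed ends in many cells, by 4.40 (exact p = 0.00123, adjusted 0.00490), with -1.85 in DM and -6.25 in GM. All 15 DM libraries exceeded the GM libraries for both ratios.

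The remaining ratios were less clear. Xirp1 to its relative Xirp2 averaged 1.45 in DM and 0.46 in GM, a shift of 0.99 whose exact p of 0.0355 became 0.0533 after adjustment. Its adjusted exact p was 0.0353 without replicate 1 at 24 h and 0.0287 without replicate 2 at 24 h. It reached 2.52 ± 0.19 at 96 h but was 0.50 ± 0.39 at 24 h, where its libraries overlapped those of GM. Klhl41 to Klhl40 averaged 0.96 in DM and 1.40 in GM (shift -0.44, exact p = 0.0833, adjusted 0.100). This ratio was lowest at 24 h, 0.62 ± 0.04, and was 1.63 ± 0.09 at 96 h, close to its GM value of 1.40 ± 0.24. Lmod3 to Lmod2 averaged 2.12 in DM and 1.93 in GM (shift 0.19, exact p = 0.596, adjusted 0.596), with 2.69 ± 0.38 at 12 h and 1.27 ± 0.08 at 96 h, and the test over all DM times does not read this order in time. With CPM + 1 the shift of Lmod3 to Lmod2 was 1.01 (adjusted exact p = 0.00490). Lmod2 had 0.0917 to 0.199 CPM in GM, near the 0.1 added in the main ratio and below 1. Both shifts therefore depend on the added value, and no direction is read from them. In the fits against GM, Lmod3 rose more than Lmod2 at 12 h (1.70 and 1.27) and less at 96 h (6.34 and 7.61).

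**Figure D3:**
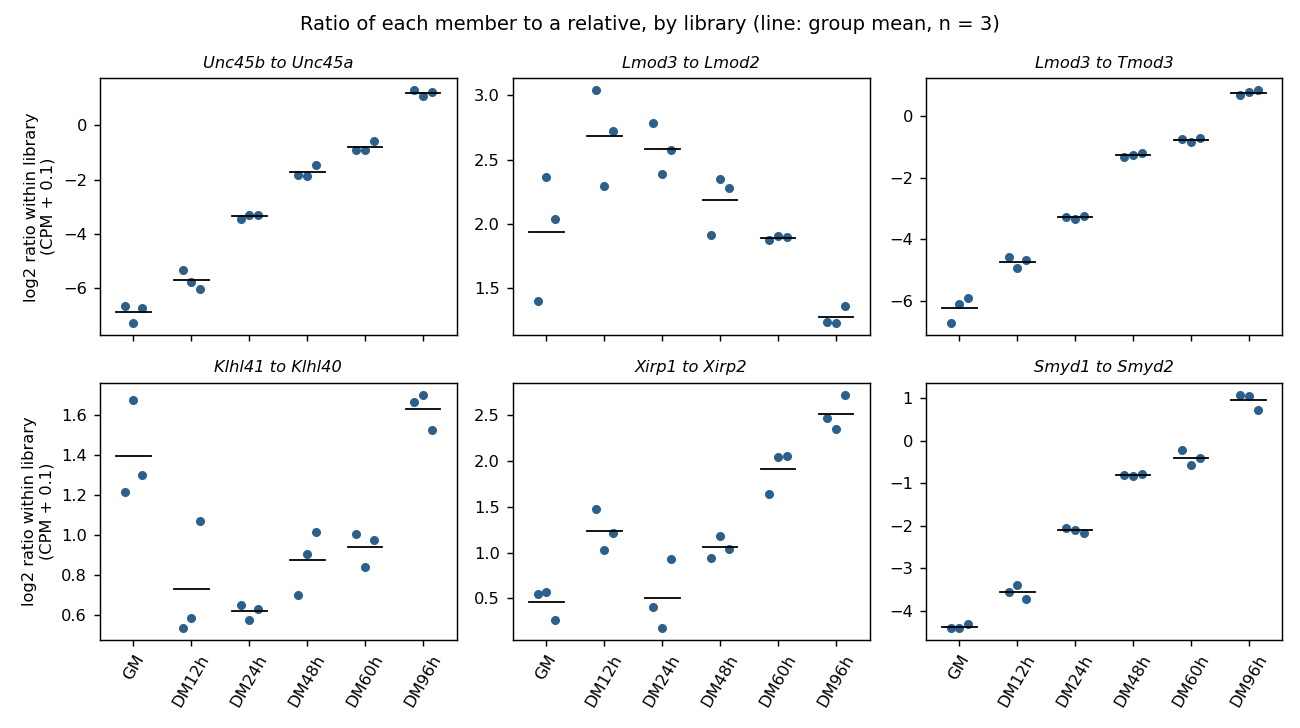
Log2 ratio of each gene to a relative within each of the 18 RNA libraries (points; lines are group means of 3), in order of sampling, each panel on its own axis. Unc45b over Unc45a averages -6.89 in GM and 1.21 at 96 h without overlap between GM and DM libraries, while Klhl41 over Klhl40 dips to 0.62 at 24 h and Lmod3 over Lmod2 ends at 1.27.

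Relatives and partners moved in both directions. Among the other KLHL genes and the cullin 3 ligase, 15 of 24 tested genes were called higher and 2 lower at 60 h against GM, with a median log2 fold change of 0.31 beside 0.01 over all tested genes, when 33.1% of genes were called higher and 32.2% lower. With total counts 4 of them were called lower, as also without replicate 1 or replicate 3 at 96 h. The adaptor's ligase Cul3 did not change detectably (-0.01 ± 0.05, 95% interval -0.13 to 0.11, adjusted p = 0.886), Klhl30, a muscle kelch gene, rose by 1.46 ± 0.05, and Kbtbd12 (2.45 ± 0.72) and Klhl33 (1.73 ± 0.31) rose most, the first from at most 2 counts per GM library. Ube2m, which attaches Nedd8 to cullins, fell by 0.41 ± 0.06, and Klhl21 fell by 0.30 ± 0.06. Klhl38 was too low to test.

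Tropomodulins split. Tmod1, the tropomodulin of sarcomeric pointed ends, rose by 2.99 ± 0.10 at 60 h (14.6, 13.4 and 14.0 CPM at 60 h, against 1.59, 1.71 and 1.96 CPM in GM) and the smooth muscle leiomodin Lmod1 by 1.60 ± 0.25, while Tmod3 fell by 0.29 ± 0.05. Tmod2 (0.07 ± 0.30, adjusted p = 0.850) and Tmod4 (0.00 ± 0.40, adjusted p = 0.995) were not called, and neither kept its sign. Tmod2 turned negative with total counts and without GM replicate 2. Tmod4 did so under most alternatives, among them total counts and upper-quartile scaling. Of the SMYD relatives, Smyd3 rose by 0.38 ± 0.06, whereas Smyd2, Smyd4 (-0.29 ± 0.06) and Smyd5 (-0.65 ± 0.06) fell. The count of Naca, the gene of a Smyd1 partner, also fell (-0.19 ± 0.04). Counts are per gene, so transcript forms of Naca were not told apart. Xirp2 rose by 1.31 ± 0.14 and Nrap, an actin-binding protein of early myofibrils, by 2.44 ± 0.07. In their list of Xin relatives and junction partners, 9 of 10 were called higher and 0 lower at 60 h, beside 33.1% and 32.2% of tested genes.

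At 60 h, when 33.1% of tested genes were called higher and 32.2% lower, more of the general chaperones were called lower than higher. Of 14 tested genes of the Hsp90 and Hsp70 machinery, with Unc45a counted among them, 3 were called higher and 9 lower at 60 h (median -0.15), and with total counts 1 was called higher. The Hsp90 co-chaperones Fkbp5 (-0.85 ± 0.08) and Fkbp4 (-0.46 ± 0.05) fell most, while Dnajb6, a partner of Hsp70, rose by 0.47 ± 0.05 and the Hsp90 partner Chordc1 by 0.27 ± 0.07, a call lost with total counts. Of 15 chaperonin and prefoldin genes, which fold actin, 3 were called higher and 10 lower (median -0.29), led downwards by Cct7 (-0.54 ± 0.04) and Cct2 (-0.52 ± 0.05). Pfdn5 (0.51 ± 0.04) and Vbp1 (0.29 ± 0.08) rose most there, Vbp1 losing its call with total counts. At 12 h the Hsp90 and Hsp70 list had 8 of 14 called higher and 2 lower (median 0.18), when 17.8% of tested genes were called higher. The chaperonin and prefoldin list then had 1 of 15 called higher and 4 lower (median -0.05).

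Small heat shock proteins were mixed at 60 h, with 5 of 8 called higher and 3 lower (median 0.94), beside 33.1% and 32.2% of tested genes. Hspb7, with 0 to 4 counts per GM library, rose by 2.67 ± 0.57, and Hspb3 was called higher with 0.374, 0.267 and 0.526 CPM at 60 h against 0.0371, 0.0306 and 0 CPM in GM. Hspb6 fell by 1.54 ± 0.22 and the Hspb8 partner Bag3 by 0.37 ± 0.09. The structural clients were all called higher at 60 h: 11 of 11 thin filament genes (median 5.38), including Neb (3.02 ± 0.10), Tnnc1 (5.76 ± 0.09) and Tnnt3 (5.63 ± 0.08), and 11 of 11 thick filament genes (median 5.66), including Mybph (6.11 ± 0.10). The myosin heavy chain Myh4 had 3.49, 2.903 and 3.78 CPM at 60 h, against 0, 0.0611 and 0.0332 CPM in GM, where it had 0 to 2 counts. The median of the 8 at the same time was 5.06. At 12 h, when 17.8% of tested genes were called higher, 9 of 11 thin filament and 8 of 11 thick filament genes were called higher and 0 lower. Neb was not called then (-0.26 ± 0.10, adjusted p = 0.0557).

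Regulators of muscle genes were led by Myog, the myogenic factor of differentiation, which rose by 4.86 ± 0.07, and Mef2c, which rose by 2.24 ± 0.11. Of 13 tested, 7 were called higher and 3 lower at 60 h, beside 33.1% and 32.2% of tested genes. The largest falls were those of Mkl1 (-0.89 ± 0.09), a serum response factor co-activator, and Myf5 (-0.70 ± 0.06).

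**Figure D4:**
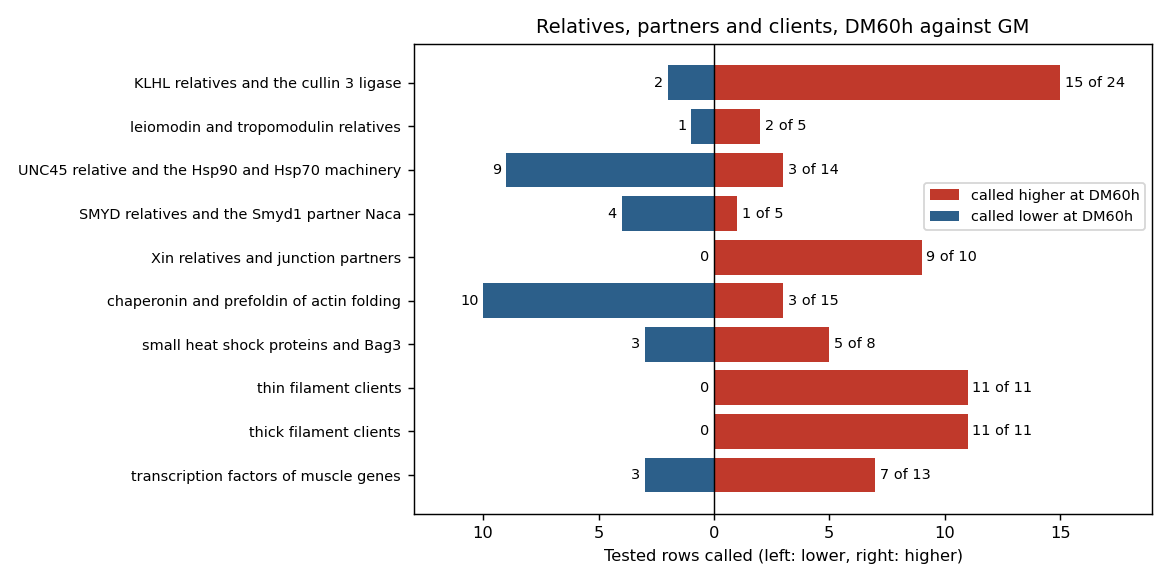
Number of tested genes called higher (right) or lower (left) at 60 h against GM in each list of relatives, partners, clients and regulators, at an adjusted p under 0.05. All 11 thin filament and all 11 thick filament genes are called higher, whereas the chaperonin list has 10 lower and 3 higher. Of all tested genes, 33.1% were called higher and 32.2% lower.

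Open chromatin at the loci was read from 1 deposited list of broad peaks per condition, 189516 peaks at 60 h (median length 533 bases) and 181622 in GM (464 bases). With 1 list per condition no difference was tested. The fold enrichment and q of a peak are the authors' own values and describe it within its list. Start sites were placed for 6 of the 8 genes, from RefSeq on GRCm38.p6, the assembly of the mm10 coordinates in the files. Of these, 5 had a peak within 2 kb of the start in both lists, as 95.1% of 9662 starts did, and Unc45b had one at 60 h only, as 0.662% did. None of the 6 had one in GM only (0.673% of starts) or in neither list (3.56%).

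Unc45b (chr11:82911253-82943406, plus strand) carried at 60 h a peak over its start at chr11:82910636-82911742, with a fold enrichment of 3.32 and a −log10 q of 133. That peak covers the whole promoter printed above with both of its E-boxes. The nearest GM peaks lay 2.65 kb upstream, in the neighbouring gene Nle1, and 3.59 kb downstream, within Unc45b, and each overlapped a peak at 60 h. The upstream peak had a fold of 6.03 at 60 h (88.1 percentile of that list) and 7.47 in GM (90.9 percentile). The in-gene peak had a fold of 3.19 at 60 h (60.8 percentile) and 6.84 in GM (87.9 percentile). With a window of 5 kb in place of 2 kb, Unc45b therefore counted as having a peak in both.

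Lmod2 (chr6:24597771-24605414, plus strand) had a peak over its start in both lists. At 60 h it ran over 570 bases with a fold of 7.04 and a −log10 q of 439, above 93.1% of peaks of its list by fold. In GM it ran over 169 bases with a fold of 1.62 and a −log10 q of 1.29, at the 12.0 percentile of that list, and it dropped out when a −log10 q of at least 4 was required. A second peak inside the gene, at chr6:24599372-24600841, was listed at 60 h only. Within 50 kb of the gene, 9 peaks had no counterpart in GM and 1 GM peak had none at 60 h, and 9.39% of 12033 genes had as many or more 60 h-only peaks.

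Klhl41 (chr2:69670120-69684239, plus strand) had a start peak in both lists, at the 94.0 percentile of fold at 60 h and the 94.5 percentile in GM. A peak 10.4 kb upstream, at chr2:69659170-69659761 within the span of Bbs5, had a fold of 12.3 at 60 h, which put it at the 99.9 percentile of that list. Its GM counterpart had a fold of 2.64, at the 45.5 percentile of the GM list. Other shared peaks ranked higher in the GM list. The peak 6.63 kb into the gene had a fold of 3.46 at 60 h (64.6 percentile) and 7.58 in GM (91.4 percentile), and the peak 4.87 kb upstream had 2.89 at 60 h (55.8 percentile) and 4.64 in GM (72.2 percentile). Peaks listed at 60 h only lay 1.26 kb upstream and at chr2:69680743-69683291 inside the gene, and a peak listed in GM only lay at chr2:69680054-69680445 inside the gene. Within 50 kb Klhl41 had 6 peaks at 60 h only and 3 in GM only, and 22.3% of genes had as many or more 60 h-only peaks.

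At the other loci the start peaks were in both lists. Those of Klhl40 (fold 4.14 at 60 h and 4.16 in GM), Klhl31 (6.06 and 6.11) and Smyd1 (7.06 and 6.34) are given by their folds in each list, and no in-gene peak of Klhl40 was confined to either. Klhl31 had 4 peaks at 60 h only and 2 in GM only within 50 kb, the 4 all upstream of its start, the farthest 19.2 kb away at chr9:77615585-77617489 with a fold of 5.09. Smyd1 had 4 at 60 h only and 9 in GM only. Lmod3, with no start placed here, had 3 in-gene peaks in both lists, the foremost at 60 h being chr6:97239978-97240627 with a fold of 11.2 (99.8 percentile), whose GM counterpart had a fold of 8.45 (94.4 percentile). Within 50 kb, Lmod3 had 7 peaks at 60 h only and 4 in GM only, and Xirp1 had 3 and 1. Klhl40 had 1 at 60 h only and 4 in GM only, and Unc45b had 2 and 3. The median over 12033 genes was 3 at 60 h only, and 44.2% of them had more 60 h-only than GM-only peaks.

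**Figure D5:**
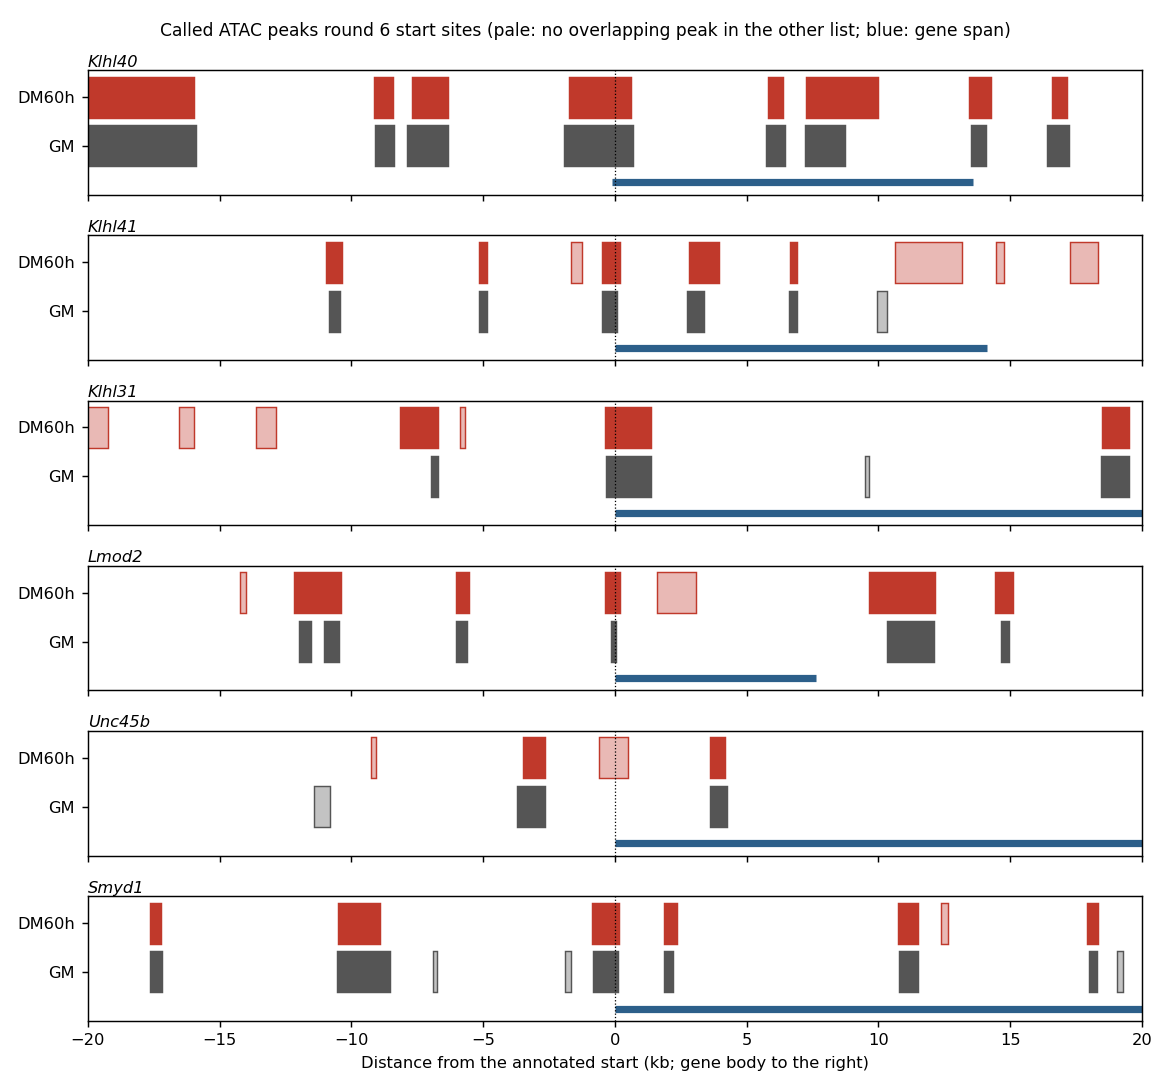
Called ATAC peaks within 20 kb of the annotated start of the 6 genes with a placed start, at 60 h (upper row of each panel) and in GM (lower row); the x axis is distance from the start in kb, pale boxes have no overlapping peak in the other list and the blue bar is the gene. The box over the Unc45b start is present at 60 h only, and the Lmod2 start box spans 570 bases at 60 h and 169 in GM.

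Over the 8 genes together, 36 peaks within 50 kb were listed at 60 h only and 27 in GM only. Of these, 6 and 4 lay inside the genes. Over 12033 genes, 45.1% had a 60 h-only and 44.4% a GM-only peak inside the gene, and 90.2% and 92.2% had one within 50 kb. The neighbourhoods hold other genes, and an entry in 1 list only can lie near the threshold of the other.

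Loop calls differed among the genes. In the deposited loop list, with anchors of 25 kb, a loop called at 60 h only touched the starts of Klhl40 (spanning 825 kb) and Smyd1 (100 kb) and the middle of Lmod3 (75 kb). Loops called in GM only touched the start of Klhl31 (450 kb) and of Unc45b (550 kb), and 2 touched the middle of Xirp1. Unc45b (350 kb) and Xirp1 (75 kb) each had 1 loop called in both, and Klhl41 and Lmod2 had none. Over 9662 starts, 47.9% had a loop called at 60 h only, 58.6% a loop called in GM only, 19.6% a loop called in both and 22.8% none.

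Domains on 40 kb bins had the same edges in both conditions round Klhl31 (chr9:77560001-78600000) and Unc45b (chr11:82280001-83400000), and differed by 1 bin at 1 or both edges round Klhl41, Lmod3, Smyd1 and Xirp1. The starts of Klhl40 and Lmod2 fell in no domain at 60 h and in 1 domain in GM, with a boundary within 40 kb in both conditions. With 1 set of calls per condition these differences were not tested.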

How the data were processed

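The deposited RNA table holds whole-number counts for each gene in each library (strand-specific per the labels). Per the submitters' processing notes, STAR, RSEM 1.3.0, Bowtie2 2.2.6, MACS2 2.2.7, HiC-Pro 2.9.0 and build mm10 were used. RSEM estimates counts, and no source used here says how they became whole. Each deposited peak list gives a fold enrichment ratio, a score and a −log10 q, 1 list per condition. Domain boundaries carry a deposited score of unstated scale, which was not used. Transcript lengths were not used here.

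The 18 RNA libraries were fitted together with edgeR 4.0.16 (R 4.3.3, TMM scaling, filterByExpr by group, group as the only term, 12 residual degrees of freedom), with Benjamini-Hochberg adjustment over 15303 genes. Of 49089 genes, 22315 had no count. The procedure was tested on simulated data. Ratios used Python 3.11.15 and an exact test. Libraries of a group differed by more than sampling noise.

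Members and lists were chosen with earlier results of these data known. A gene of the Hsp90 and Hsp70 list was left out and is not reported here. Named genes were the members, their closest relatives, up to 2 called rises and falls per list at 60 h, and the closest profiles. Alternatives covered scaling, DESeq2 1.42.0, filters, libraries, the replicate block, the added value in ratios, and peak thresholds.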

Additional observations from a re-analysis of the deposited data

How the results depend on the processing

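Of 1871 member fold changes under 26 alternatives, 1859 kept their side of the threshold. Those called in the main fit also kept their direction, while the uncalled Xirp1 difference between 12 and 24 h ran from -0.17 to 0.22. The 12 others were Lmod2 at 12 h without GM replicate 2 (1.03, adjusted p = 0.0842) and Xirp1 from 48 to 60 h (0.22 to 0.33 in 11 alternatives, adjusted p up to 0.157), and in none did the direction turn. Lmod2 could not be tested at 12 h on the 6 libraries of that contrast alone. That fit repeated the count filter on those libraries, where Lmod2 held 3 to 6 counts in GM and 10 to 15 at 12 h, and it was not kept. At 60 h against GM with total counts, the KLHL list had 4 genes called lower and the Hsp90 and Hsp70 list 1 called higher. Leaving out 1 library gave 2 to 4 lower for the KLHL list. From 48 to 60 h, 2425 genes were called higher and 1732 lower, against 998 and 3101 with total counts, and 1192 higher without 48 h replicate 1 and 1603 without 48 h replicate 2. Deviations of same-numbered libraries correlated at -0.50 to 0.33 (median -0.03, 9 of 45 pairs over 0.1). Those of differently numbered libraries correlated at -0.46 to 0.47 (median 0.00, 30 of 90 pairs over 0.1). No greater likeness by number was seen, which cannot tell whether a number marks a shared culture. With the replicate block, no member call changed, and 2359 genes were called higher and 1697 lower from 48 to 60 h. With CPM + 1, the ratio shifts were 1.01 (Lmod3 to Lmod2, adjusted p = 0.00490) and 0.97 (Xirp1 to Xirp2, adjusted p = 0.0441), both then past the threshold. Leaving out 1 library put Xirp1 to Xirp2 between 0.89 and 1.08. Starts with a 60 h-only peak numbered 0 within 5 kb and 2 at a −log10 q of at least 4, where GM-only peaks inside the genes numbered 2. Lmod2 and Unc45b rest on 3 to 8 counts per GM library, which limits their folds. Pooling of the ATAC libraries is not stated.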
